A study of Mus musculus with 4 samples.

Results

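The globin genes of the mouse were read in 4 RNA sequencing libraries of Adar1 mutant embryos and livers. The genes are those of the alpha cluster on chromosome 11 (Hba-x, Hba-a1 and Hba-a2) and of the beta cluster on chromosome 7 (Hbb-y, Hbb-bh1, Hbb-bs and Hbb-bt). They were chosen by symbol, through the Ensembl transcript identifier of each isoform, with Hbb-bs and Hbb-bt taken as the symbols to which adult beta globin mapped. This gave 7 genes of 33783 with a symbol, and 12 reference isoforms over all libraries. Isoforms were matched for 6 in each embryo library (of 24127 and 30090 isoforms), 8 in the liver labelled Adar1-/- (of 301774) and 4 in the liver labelled Adar1-/- Mavs-/- (of 289174).

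Haemoglobin is built from alpha-type and beta-type chains, and the genes of each type lie side by side in the order in which they are used in development. Primitive red cells, which form in the yolk sac, use the embryonic chains zeta (Hba-x), epsilon-y (Hbb-y) and beta-h1 (Hbb-bh1) together with the adult alpha chains. Definitive red cells, which form in the fetal liver, use the adult alpha chains (Hba-a1 and Hba-a2) with the adult beta chains (Hbb-bs and Hbb-bt).

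The study profiled total RNA, extracted with Trizol and made into standard Illumina libraries, from mice lacking Adar1 alone or Adar1 and Mavs. Adar1 encodes an RNA editing enzyme that turns adenosine into inosine where RNA is paired, and Mavs encodes the adaptor through which cytosolic RNA sensors signal. By their labels all 4 groups lack Adar1, and no group labelled with an intact Adar1 gene was analysed here. Whole embryos at E11.5, with the strain label C57B16/N, were Adar1-/- in one library and Adar1-/- Mavs-/- in the other. Livers at E15.5, with the strain label C57B6/J, were labelled Adar1-/- in one library and Adar1-/- Mavs-/- in the other. The sources used here do not say how each allele was made or how many animals went into a library.

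Each group has 1 library, so no difference between groups has a replicate check and no test was made. Levels are in FPKM, the fragments counted for a transcript divided by its length and by the library's mapped fragments, summed over the isoforms of a gene. Ranges in parentheses are the deposited confidence bounds, and an error after ± comes from these bounds. Both cover the estimation within a library and not the spread between animals. Ratios between libraries are log2 of (FPKM + 1) after scaling to the median of shared genes, so they understate the change of low genes, and a gene is called where its ratio is at least 2-fold. Comparisons with embryo span chromosomes 10, 11 and the part of 12 that both embryo libraries hold. On chromosome 12 the Adar1-/- embryo values end at base 11695810 and those of the Adar1-/- Mavs-/- embryo at base 121257179. The beta cluster on chromosome 7 was read in liver only. Adult alpha globin was not analysed here in liver, nor adult beta globin in the liver labelled Adar1-/- Mavs-/-.

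Depth, read as coverage per FPKM, was 3.48 and 5.62 for embryos and 8.58 and 7.13 for livers, with the Adar1-/- label first. Hepatocyte markers were abundant in both livers: Alb, the main plasma albumin, was at 4787 and 6648 FPKM and Afp at 3004 and 3195 FPKM. For Adar, 0 of 8 reference isoforms were above 0 in the liver labelled Adar1-/-, and 3 of 8 were above 0 in the liver labelled Adar1-/- Mavs-/-. Summed with isoforms assembled from the reads, Adar stood at 5.56 and 4.11 FPKM and Mavs at 7.26 and 9.96 FPKM. The sources used here do not name the deleted exons, so these values do not check the labels.

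How far the chains can be told apart by their reads is set by their sequence. A stretch of 60 coding bases is shown for each gene, from GENCODE M21 transcripts, 5′ to 3′, with positions counted from 1 at the A of the start codon. Capitals mark the bases that differ from Hba-a1 (alpha type, positions 160 to 219) or from Hbb-bs (beta type, positions 205 to 264).

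Hba-a1: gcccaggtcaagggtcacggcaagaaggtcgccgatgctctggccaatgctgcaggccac
Hba-a2: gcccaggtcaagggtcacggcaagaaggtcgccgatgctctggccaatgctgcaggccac
Hba-x: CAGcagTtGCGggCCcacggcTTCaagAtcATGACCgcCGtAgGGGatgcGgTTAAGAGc
Hbb-bs: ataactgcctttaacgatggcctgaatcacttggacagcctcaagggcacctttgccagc
Hbb-bt: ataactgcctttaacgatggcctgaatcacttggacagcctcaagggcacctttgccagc
Hbb-y: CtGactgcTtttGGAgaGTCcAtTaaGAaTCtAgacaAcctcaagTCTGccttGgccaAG
Hbb-bh1: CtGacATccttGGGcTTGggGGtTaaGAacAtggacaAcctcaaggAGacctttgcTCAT

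In this stretch 0 bases of Hba-a2 differ from Hba-a1 and 33 bases of Hba-x do. Of the beta type, 0 bases of Hbb-bt, 24 of Hbb-y and 23 of Hbb-bh1 differ from Hbb-bs. Over the whole coding sequence without its stop codon, Hba-a1 and Hba-a2 differ at 1 of 426 bases and share an unbroken run of 380 bases. Hbb-bs and Hbb-bt differ at 1 of 441 bases and share a run of 416. The sources used here do not say how reads that fit both copies were divided, so the values of Hba-a1 against Hba-a2, and of Hbb-bs against Hbb-bt, are uncertain and their sums are the firmer quantity. The embryonic genes stand apart from the adult ones. Hba-x is 61.7% identical to Hba-a1 with a longest shared run of 18 bases, and Hbb-y and Hbb-bh1 are 74.4% and 73.9% identical to Hbb-bs with runs of 22. Hbb-y and Hbb-bh1 are 76.4% identical to each other, with a longest shared run of 26 bases.

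The 250 bases upstream of the start are printed for the genes in the RefSeq promoter table (GRCm38.p6, a different build from the mm9 positions of the values), since the order of the genes in development is set through these and distal elements. Each runs 5′ to 3′ on the gene's own strand. Capitals mark matches, on either strand, to 5 short motifs of known globin promoter elements. The TATA box was searched as TATAA and the CAAT-type box of many promoters as CCAAT. The motif bound by Klf1 and its relatives was searched as CACCC. The motif bound by the GATA factors of red cells was searched as GATAA, and the core of nuclear receptor sites as TGACC.

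Hba-x: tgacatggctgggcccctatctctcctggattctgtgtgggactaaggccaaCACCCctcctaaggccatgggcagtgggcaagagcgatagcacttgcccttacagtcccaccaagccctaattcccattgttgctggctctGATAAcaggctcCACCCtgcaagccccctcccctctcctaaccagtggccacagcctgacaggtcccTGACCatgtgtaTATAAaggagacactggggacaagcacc
Hba-a1: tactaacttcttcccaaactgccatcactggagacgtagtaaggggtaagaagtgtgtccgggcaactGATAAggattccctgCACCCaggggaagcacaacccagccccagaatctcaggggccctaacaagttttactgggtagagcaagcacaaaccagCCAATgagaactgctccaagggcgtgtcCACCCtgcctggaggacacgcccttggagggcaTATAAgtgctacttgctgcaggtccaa
Hba-a2: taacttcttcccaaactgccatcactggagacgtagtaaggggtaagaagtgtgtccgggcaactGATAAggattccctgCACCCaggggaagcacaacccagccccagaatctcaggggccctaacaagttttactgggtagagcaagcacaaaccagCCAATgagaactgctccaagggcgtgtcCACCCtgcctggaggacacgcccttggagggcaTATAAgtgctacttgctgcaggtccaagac
Hbb-y: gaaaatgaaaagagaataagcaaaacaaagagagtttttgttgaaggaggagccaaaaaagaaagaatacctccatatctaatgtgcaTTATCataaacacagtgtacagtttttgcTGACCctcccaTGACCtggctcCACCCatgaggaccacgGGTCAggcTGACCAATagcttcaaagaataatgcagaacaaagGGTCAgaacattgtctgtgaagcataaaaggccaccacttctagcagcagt
Hbb-bs: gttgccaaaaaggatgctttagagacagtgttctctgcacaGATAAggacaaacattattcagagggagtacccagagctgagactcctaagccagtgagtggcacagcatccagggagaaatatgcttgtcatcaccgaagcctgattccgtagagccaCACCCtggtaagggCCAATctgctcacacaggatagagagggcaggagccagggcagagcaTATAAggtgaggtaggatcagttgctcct
Hbb-bt: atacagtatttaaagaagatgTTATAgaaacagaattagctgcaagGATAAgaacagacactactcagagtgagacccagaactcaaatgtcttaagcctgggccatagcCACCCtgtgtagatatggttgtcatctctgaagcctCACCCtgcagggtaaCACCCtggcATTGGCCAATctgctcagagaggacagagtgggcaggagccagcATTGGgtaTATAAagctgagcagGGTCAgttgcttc

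The stretches are chr11:32276350-32276599 for Hba-x, chr11:32283422-32283671 for Hba-a1 and chr11:32296242-32296491 for Hba-a2, all on the plus strand. On the minus strand they are chr7:103853208-103853457 for Hbb-y, chr7:103827929-103828178 for Hbb-bs and chr7:103813924-103814173 for Hbb-bt. Among 32851 promoters of the same table, cut to the same length, 22.8% hold the TATA letters on either strand and 33.8% hold CCAAT. The Klf1 motif is in 52.0% of them, the GATA factor motif in 22.6% and the nuclear receptor core in 35.2%. All 6 globin stretches hold at least 1 match to the Klf1 motif and 1 to the GATA factor motif. The TATA letters were matched in all but Hbb-y, and CCAAT in all but Hba-x. The nuclear receptor core, found in the direct repeats bound by the orphan receptors Nr2c1 and Nr2c2 (TR2 and TR4), was matched 5 times in Hbb-y, 1 time in Hba-x and Hbb-bt, and 0 times in Hba-a1, Hba-a2 and Hbb-bs; 1 of the Hbb-y matches overlaps its CCAAT. The upstream stretches of Hba-a1 and Hba-a2 share a run of 247 bases, while those of Hbb-bs and Hbb-bt share at most 14. A match is a run of letters and does not show that a factor binds.

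Hba-x, the embryonic alpha-type gene, lies at chr11:32176400-32178116 (mm9), and was abundant in whole embryos and low in liver. Its level was 806.2 FPKM (791.2 to 821.2) in the Adar1-/- embryo library and 852.4 FPKM (838.6 to 866.1) in the Adar1-/- Mavs-/- embryo library. In liver it was 8.46 FPKM (7.49 to 9.44) in the library labelled Adar1-/- and 9.61 FPKM (8.37 to 10.9) in the library labelled Adar1-/- Mavs-/-. Both embryo values lie far above both liver values, and the bounds of the 2 liver values overlap.

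Between tissues, Hba-x was 74.4-fold lower in liver than in embryo among the Adar1-/- libraries and 79.5-fold lower among those labelled Adar1-/- Mavs-/-. These folds are of scaled FPKM with nothing added. With 1 added to each FPKM, the log2 ratios were -6.09 ± 0.15 and -6.19 ± 0.17, which are slightly smaller in size. At least 2-fold lower values in liver were common, at 28.8% of 2092 genes for the Adar1-/- label and 27.9% of 1989 for the Adar1-/- Mavs-/- label. A ratio at least as far below 0 as that of Hba-x was found in 4 of 2091 other genes (0.191%) and 2 of 1988 (0.101%). Genes as far above 0 were not counted. Tissue, age and strain label differ together here and cannot be told apart. In such bulk samples, fewer primitive red cells and less Hba-x RNA per cell cannot be told apart either.

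Set against a red cell gene in the same library, the difference was larger. Slc4a1, the anion exchanger band 3 of the red cell membrane, was at 26.9 and 23.8 FPKM in embryos and at 1263 and 1335 FPKM in livers. Per 100 FPKM of Slc4a1, Hba-x stood at 2999.9 ± 138 and 3586 ± 106 FPKM in the embryos, and at 0.670 ± 0.078 and 0.720 ± 0.094 FPKM in the livers, with the Adar1-/- label first. With matched reference isoforms only, the Adar1-/- embryo stood at 4646 FPKM and the other embryo at 3586 FPKM still, so the order of the embryos turned. This quantity does not depend on scaling between libraries, but it carries the difference of Slc4a1 itself between the tissues. Whether Slc4a1 per red cell is alike in embryo and liver was not tested, so the quantity is not a level of Hba-x per red cell.

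**Figure D1:**
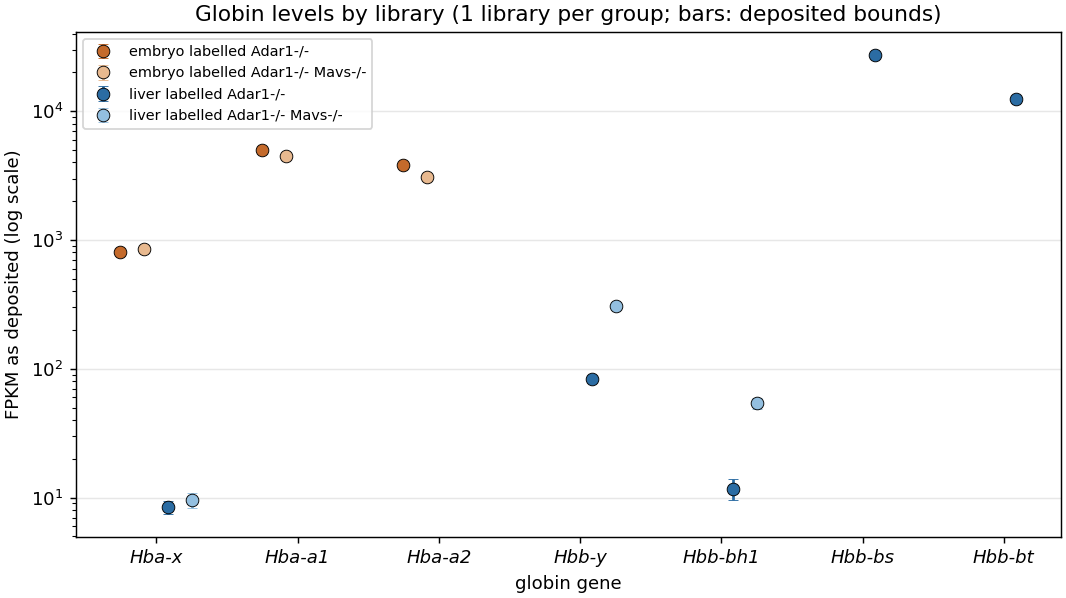
Level of each globin gene (FPKM as deposited, log scale) in each library in which it was read, with 1 point per library and bars for the deposited confidence bounds. Hba-x lies near 806.2 and 852.4 FPKM in the embryos and near 8.46 and 9.61 FPKM in the livers, while Hbb-y and Hbb-bh1 are higher in the liver labelled Adar1-/- Mavs-/- than in the liver labelled Adar1-/-.

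Hba-a1 (chr11:32183511-32184465, mm9) and Hba-a2 (chr11:32196489-32197301, mm9), the adult alpha-chain genes, were the most abundant of the members in embryos. Hba-a1 was at 5006 FPKM (4961.5 to 5050.7) in the Adar1-/- embryo library and 4491 FPKM (4452 to 4529) in the Adar1-/- Mavs-/- one. Hba-a2 was at 3852 FPKM (3806 to 3898) and 3099 FPKM (3075 to 3123). The order was Hba-a1, Hba-a2, then Hba-x in both embryo libraries, and no bounds overlapped within a library. Hba-a2 gave 43.5 ± 0.4% and 40.8 ± 0.3% of adult alpha globin, with the Adar1-/- label first, under the uncertainty over the near-identical copies. With matched reference isoforms only, these shares were 13.97% and 53.1%, so the order of the libraries turned. In the Adar1-/- Mavs-/- library the order of the genes then turned too, with Hba-a2 at 3099 FPKM and Hba-a1 at 2738 FPKM.

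The zeta share, Hba-x as a percent of Hba-x, Hba-a1 and Hba-a2 together, was 8.34 ± 0.15% in the Adar1-/- embryo library and 10.1 ± 0.16% in the Adar1-/- Mavs-/- one. The bounds do not overlap, but each share rests on 1 library. With isoforms kept only if their reference identifier was matched, the shares were 12.2% and 12.7%, so the step between the libraries was smaller. In the Adar1-/- embryo library 1 unmatched isoform of Hba-a2, ENSMUST00000093206, held 3039 FPKM, and in the other library 1 unmatched isoform of Hba-a1, ENSMUST00000093208, held 1753 FPKM.

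Between the embryo libraries, 0 of the 3 alpha-type genes were 2-fold apart, against 6.57% of 1917 genes that were higher by 2-fold or more in the Adar1-/- Mavs-/- library and 9.81% that were lower by as much. These were 126 and 188 genes, and 58 and 736 when levels were scaled as TPM (transcripts per fixed total) over the shared genes. The scaled log2 ratio, Adar1-/- Mavs-/- over Adar1-/-, was 0.50 ± 0.04 for Hba-x, 0.26 ± 0.02 for Hba-a1 and 0.11 ± 0.02 for Hba-a2. Their direction is not settled: the factor between these libraries was 1.34, and over the ways of scaling and choosing isoforms the ratio ran from -0.44 to 0.65 for Hba-x, from -0.68 to 0.42 for Hba-a1 and from -0.83 to 2.30 for Hba-a2. Unscaled, Hba-x was higher by 0.08 on the log2 scale and the adult genes summed were lower, with a log2 ratio of -0.22.

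The theta-type genes of the alpha cluster, Hbq1a and Hbq1b, were low. Hbq1b was at 6.20 and 5.92 FPKM and Hbq1a at 2.29 and 1.82 FPKM in the embryo libraries, with the Adar1-/- label first. Their ratios were 0.31 ± 0.69 and 0.06 ± 0.46, within the error from the bounds. Of 5 counted genes that flank the cluster, 0 were 2-fold apart in embryos, with a median log2 ratio of -0.12, equal at 2 decimals to that of all 1917 genes. Of these, Snrnp25, which encodes a spliceosome protein, was at 16.4 and 22.03 FPKM (0.81 ± 0.18), and Mpg, a DNA glycosylase gene, at 14.2 and 8.13 FPKM (-0.36 ± 0.13). Rhbdf1, which encodes an inactive rhomboid, was at an unscaled 10.4 and 9.83 FPKM, with a scaled log2 ratio of 0.31 ± 0.22. Nprl3, whose introns carry the alpha-globin enhancers, was at 7.19 and 4.64 FPKM (-0.18 ± 0.16).

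In liver, 5 flanking genes were counted, and in the library labelled Adar1-/- Mavs-/- 2 of them were lower by 2-fold or more, beside 9.74% of all 13854 genes. Their median was -0.60. Rhbdf1 went from 4.76 to 1.41 FPKM (-1.26 ± 0.17) and Nprl3 from 1.05 FPKM to a listed 0. Snrnp25 was at 9.82 and 11.2 FPKM, Mpg at 1.72 and 1.84 FPKM and Sh3pxd2b, which encodes a podosome scaffold, at 1.90 and 0.92 FPKM. Hba-x between them stood at a log2 ratio of 0.16 ± 0.23, which ranged from -0.13 to 0.37 over the alternatives and does not exceed its error.

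The adult beta-chain genes carried nearly all beta-type signal in the liver library labelled Adar1-/-. Hbb-bs (chr7:110975048-110976610, mm9) was at 27142 FPKM (27081 to 27204) and Hbb-bt (chr7:110961038-110962510, mm9) at 12363 FPKM (12331 to 12395), so Hbb-bt made up 31.3% of adult beta globin. All isoforms of both genes carry the status LOWDATA rather than OK, per the deposited tables. Against a sum of 39505 FPKM for the adult genes, Hbb-y and Hbb-bh1 summed to 95.1 FPKM, and the embryonic share of beta-type globin was 0.240 ± 0.009%. With matched reference isoforms only, it was 0.226%. The share in the other liver library, and the balance of alpha-type to beta-type chains, were not analysed here.

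Hbb-y and Hbb-bh1, the embryonic beta-type genes, were both higher in the liver labelled Adar1-/- Mavs-/-. Hbb-y (chr7:111000259-111001754, mm9), the epsilon-y chain gene and the nearest to the locus control region, was at 83.4 FPKM (80.6 to 86.2) in the liver labelled Adar1-/- and 304.6 FPKM (297.0 to 312.2) in the liver labelled Adar1-/- Mavs-/-. Hbb-bh1 (chr7:110990150-110991678, mm9), the beta-h1 chain gene, was at 11.7 FPKM (9.50 to 14.0) and 54.0 FPKM (48.5 to 59.4). For neither gene do the bounds overlap.

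After scaling, Hbb-y was 3.64-fold and Hbb-bh1 4.57-fold higher, as folds of FPKM with nothing added. With 1 added to each FPKM, the log2 ratio was 1.85 ± 0.06 for Hbb-y and 2.10 ± 0.29 for Hbb-bh1. Of the 3 embryonic genes counted in liver, 2 were thus at least 2-fold higher, against 6.61% of 13854 genes, and 0 were at least 2-fold lower, against 9.74%. These backgrounds are 916 and 1349 genes, 691 and 2171 when scaled as TPM, and 1151 and 1008 with a factor from all genes above 0. Among 4453 genes of at least 10 FPKM in both livers, which include Hbb-y and Hbb-bh1, 2.43% were at least 2-fold higher. A ratio at least as far above 0 was found in 410 of 13853 other genes (2.96%) for Hbb-y and in 340 (2.45%) for Hbb-bh1. Genes as far below 0 were not counted. Over the ways of scaling and choosing isoforms, the ratio ran from 1.16 to 2.08 for Hbb-y and from 1.79 to 2.33 for Hbb-bh1, at least 2-fold throughout.

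Hba-x, the embryonic alpha-type gene, stood apart from the embryonic beta-type genes in this comparison. Per 100 FPKM of Hbb-y and Hbb-bh1 together, Hba-x stood at 8.90 ± 1.08 FPKM in the liver labelled Adar1-/- and 2.68 ± 0.36 FPKM in the liver labelled Adar1-/- Mavs-/-. This ratio within a library needs no scaling, and the bounds do not overlap. With matched reference isoforms only, the second value was 4.50. Hbb-bh1 gave 12.3 ± 2.1% and 15.0 ± 1.3% of the embryonic beta-type sum, and these overlap within their errors. With matched reference isoforms only they were 6.69% and 11.6%. With Slc4a1 as the measure of red cells, Hbb-y and Hbb-bh1 stood at 7.53 ± 0.30 and 26.8 ± 0.8 FPKM per 100 FPKM of Slc4a1, or at 7.07 and 15.996 FPKM with matched reference isoforms only.

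**Figure D2:**
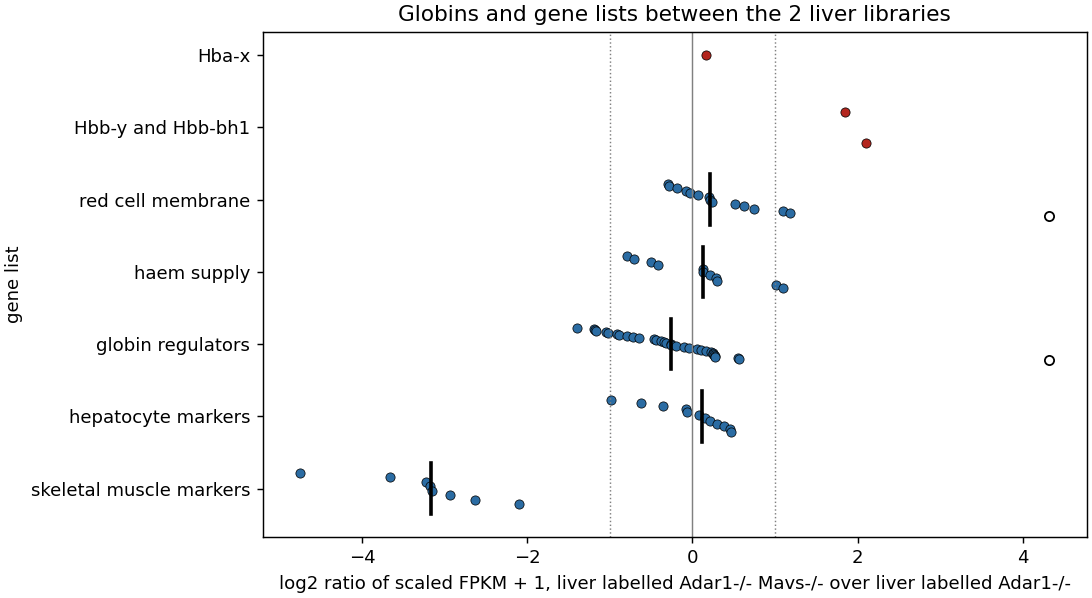
Log2 ratio of scaled FPKM + 1 between the liver libraries, labelled Adar1-/- Mavs-/- over labelled Adar1-/-, for Hba-x, the embryonic beta-type genes and each counted gene of 5 lists. Filled points are genes above 0 in both libraries, open points are genes listed at 0 in one, thick bars are list medians and dotted lines mark 2-fold; Hbb-y and Hbb-bh1 lie at 1.85 and 2.10 and the 8 skeletal muscle markers all lie below -1, with a median of -3.16.

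The other genes of the beta cluster were near the limit of what was read. Hbb-bh0, a pseudogene, was at 9.34 FPKM (0 to 20.1) and 3.84 FPKM (0 to 11.51), and its ratio of -1.10 ± 2.22 does not exceed its error. Hbb-bh2 was listed at 0 and at 0.107 FPKM, and Hbb-bh3 at 0 in both livers. Hba-ps4, an alpha-globin pseudogene on chromosome 17, was listed at 0 in the liver labelled Adar1-/- and at 2.66 FPKM in the other.

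Red cell genes were compared between the livers as a measure of how much erythroid RNA each library held. Of 15 counted red cell membrane genes, 3 were at least 2-fold higher in the liver labelled Adar1-/- Mavs-/- and 0 lower. Over all 13854 counted genes 6.61% were higher and 9.74% lower. The median log2 ratio of the list was 0.22, beside -0.12 for all genes. Among the 3 higher ones, Epb42, which encodes a protein of the membrane skeleton, went from 108.7 to 248.6 FPKM (1.18 ± 0.03). Epb41, also among the 3, was listed at 0 and at 19.1 FPKM. A listed 0 can be a failed estimate, so the call of Epb41 is uncertain. Slc4a1 was at 1263 and 1335 FPKM (0.07 ± 0.03) and Tmcc2 at 161.0 and 158.5 FPKM (-0.03 ± 0.02). With the median of these genes set to 0 in place of that of all genes, the summed Hbb-y and Hbb-bh1 ratio was 1.69 rather than 1.90.

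Of 11 haem supply genes, 2 were at least 2-fold higher and 0 lower in that library, beside 6.61% and 9.74% of all genes. Their median was 0.13, beside -0.12. Both are enzymes of haem synthesis: Urod went from 210.4 to 427.4 FPKM (1.01 ± 0.06) and Uros from 23.3 to 51.2 FPKM (1.10 ± 0.11). Alas2, the first and rate-limiting enzyme in red cells, was at 228.5 and 279.5 FPKM (0.28 ± 0.02). Slc25a37, the mitochondrial iron carrier, was at 186.8 and 205.1 FPKM, and Cpox, a later enzyme of the pathway, at 138.3 and 151.5 FPKM.

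Regulators of globin genes were next compared, and 33 were counted in liver. Of these, 1 was higher by 2-fold or more and 6 lower by as much in the liver labelled Adar1-/- Mavs-/-, with a median of -0.26, beside 6.61% and 9.74% of all counted genes and their median of -0.12. The lower ones were Zbtb7a (LRF, a repressor of embryonic and fetal globin genes), at 16.4 and 5.64 FPKM (-1.39 ± 0.11), Mafg, a small Maf partner of NF-E2, at 9.82 and 3.75 FPKM (-1.19 ± 0.08), and Cited2, at 10.7 and 4.22 FPKM (-1.17 ± 0.68). Ikzf1 (Ikaros) was at 17.8 and 8.15 FPKM (-1.05 ± 0.05) and Igf2bp1, a fetal RNA-binding protein gene, at 9.19 and 4.06 FPKM (-1.02 ± 0.08). Chd4, the remodeller of the NuRD complex, was at 40.6 and 17.4 FPKM, with bounds too wide to tell a direction. Nfe2 was listed at 0 and at 19.1 FPKM, likewise with bounds too wide to tell.

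The most abundant regulators were less than 2-fold apart. Klf1, the erythroid factor that binds CACCC boxes, was at 89.6 and 105.8 FPKM (0.23 ± 0.04) and Tal1 at 59.2 and 51.7 FPKM (-0.20 ± 0.03). Lmo2, which bridges Tal1 and GATA factors, was at 108.5 and 132.5 FPKM with wide bounds, and Hdac2 at 44.8 and 67.2 FPKM (0.57 ± 0.08). Picked out for their known roles with values in view, Bcl11a, a repressor of embryonic beta-type genes, was at 16.2 and 19.8 FPKM (0.27 ± 0.04) and its partner Sox6 at 22.8 and 11.7 FPKM (-0.91 ± 0.03). On the same footing, Nr2c1 was at 6.15 and 4.21 FPKM (-0.46 ± 0.18) and Nr2c2 at 7.59 and 7.04 FPKM (-0.10 ± 0.06).

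In embryos 12 regulators were counted and 0 were 2-fold apart, beside 6.57% higher and 9.81% lower over all genes. Their median was -0.31, beside -0.12. FPKM pairs are unscaled, and the log2 ratios in parentheses are scaled, so the directions can differ. Tcf3, the E-protein partner of Tal1, was at 120.3 and 52.5 FPKM (-0.77 ± 0.09) and Mbd3 at 92.7 and 83.5 FPKM (0.27 ± 0.10). Hdac2 was at 47.0 and 49.8 FPKM (0.50 ± 0.08) and Igf2bp1 at 34.2 and 18.7 FPKM (-0.44 ± 0.04). Slc4a1 was the 1 red cell membrane gene counted in both embryo libraries, with a log2 ratio of 0.23 ± 0.07.

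Markers of other cells were also compared between the livers, and of these lists the skeletal muscle markers stood furthest apart. Each count of markers stands beside 6.61% of all genes higher and 9.74% lower by 2-fold or more. In the library labelled Adar1-/- Mavs-/- all 8 counted skeletal muscle markers were lower by 2-fold or more, with a median of -3.16, and the list summed to 157.9 and 10.4 FPKM. Mylpf, a fast muscle myosin light chain gene, was at 74.7 and 8.93 FPKM, Myl1 at 28.1 and 0.085 FPKM, Tnni2 at 15.7 and 0.79 FPKM and Ckm at 11.9 and 0.021 FPKM. Of 11 macrophage markers 3 were higher and 0 lower, with a median of 0.65 and sums of 203.8 and 253.0 FPKM. The higher ones were Adgre1 (5.35 and 11.8 FPKM), Cd68 (a listed 0 and 2.40 FPKM) and Vsig4 (0.0086 and 1.93 FPKM). Cd68 and Vsig4 were thus near the floor in the liver labelled Adar1-/-. The most abundant of the 11 were Lyz2 (88.1 and 104.4 FPKM), Cd5l (36.6 and 33.8 FPKM), Marco (21.1 and 16.0 FPKM) and C1qb (12.7 and 21.3 FPKM). Of 9 megakaryocyte markers 1 was higher and 0 lower, with a median of 0.33. These were led by Pf4 (33.0 and 61.6 FPKM) and Ppbp (20.1 and 50.01 FPKM), with Gp9 at 6.54 and 10.3 FPKM and Itgb3 at 7.70 and 5.63 FPKM. Of 12 hepatocyte markers 0 were 2-fold apart, with a median of 0.12; Trf was at 2347 and 1190 FPKM and Apoa2 at 1418 and 1346 FPKM. Of 5 counted embryo tissue markers 1 was lower and 0 higher: Myl7, an atrial myosin gene, was at 4.90 and 0.66 FPKM. Col1a1 was at 30.4 and 17.7 FPKM, Pln at 2.89 and 2.81 FPKM and Krt19 at 2.18 and 1.401 FPKM. The part that differences in tissue content play in the Hbb-y and Hbb-bh1 values was not tested.

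In the Adar1-/- Mavs-/- embryo library 2 of 10 tissue markers were lower by 2-fold or more and 0 were higher, beside 9.81% and 6.57% of all 1917 genes: Col1a1 at 77.9 and 22.7 FPKM and Krt19 at 14.7 and 5.05 FPKM. The other abundant ones were Myl7, at 53.6 and 45.8 FPKM (0.19 ± 0.13), and Fabp7, a radial glia gene, at 24.8 and 10.7 FPKM (-0.75 ± 0.18). FPKM pairs in this paragraph are unscaled, while the calls and the log2 ratios are scaled. Of 2 hepatocyte markers 1 was lower by 2-fold or more and 0 were higher, beside the same shares of all genes. Vtn was the lower one, at 97.1 and 11.8 FPKM (-2.55 ± 0.15), and Apob was at 1.28 and 0.48 FPKM (-0.47 ± 0.51). Of 3 skeletal muscle and 3 megakaryocyte markers 0 were 2-fold apart: the former were Myh3 (13.0 and 4.71 FPKM), Myh8 (1.75 and 0.66 FPKM) and Myf5 (0.77 and 1.26 FPKM). The latter were Itga2b (4.38 and 3.41 FPKM), Itgb3 (2.17 and 2.37 FPKM) and P2rx1 (2.25 and 1.15 FPKM). Of the macrophage markers Lyz2 alone was counted, at a low 0.96 and 2.99 FPKM, and it was higher by 2-fold or more (1.35 ± 0.27). The part of tissue content in the zeta share was not tested.

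The globin FPKM was divided over isoforms differently in each library. Hba-x has a longer and a shorter coding isoform, and the longer one (ENSMUST00000020531) starts further upstream. The shorter one (ENSMUST00000145569) held all of the Hba-x FPKM in the Adar1-/- embryo library and 60.02% in the Adar1-/- Mavs-/- embryo library. It held 25.6% in the liver labelled Adar1-/- and 44.5% in the liver labelled Adar1-/- Mavs-/-. The isoforms overlap over most of their length, so the split between them is an estimate.

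Much of the Hba-a1 and Hbb-bs FPKM was assigned to short models annotated as retained introns. For Hba-a1 such a model (ENSMUST00000142555) held 87.5% of the FPKM in the Adar1-/- embryo library and 51.6% in the Adar1-/- Mavs-/- one, and the coding model (ENSMUST00000093209) held 12.5% and 9.41%. For Hba-a2 the coding model (ENSMUST00000093207) held 9.34% in the Adar1-/- embryo library and 100% in the other. Its retained-intron model (ENSMUST00000147010) held 11.8% and 0%. For Hbb-bs in the liver labelled Adar1-/-, a retained-intron model (ENSMUST00000131960) held 85.1%, at 23091 FPKM. Its length is 549 bases in the deposited table and 344 in GENCODE M21, so the annotation used for the values differs from that used for the names.

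For the embryonic beta-type genes, Hbb-y was read through its coding model (ENSMUST00000033229) alone in the liver labelled Adar1-/-, and through that model (188.9 FPKM) and an assembled isoform (115.6 FPKM) in the other. Hbb-bh1 was divided in both livers between its coding model (ENSMUST00000063957), at 5.98 and 24.7 FPKM, and a shorter model (ENSMUST00000127640), at 5.76 and 29.3 FPKM. Each of these 2 models of Hbb-bh1 was higher in the library labelled Adar1-/- Mavs-/-, as was the coding model of Hbb-y.

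Between the genes, transcripts assembled from the reads were few in the clusters and frequent upstream of Hbb-y. Between Hba-x and Hba-a1, 0 and 2 such isoforms were listed for embryos and 1 for each liver, at 1.74 and 2.72 FPKM in liver. Between Hbb-bs and Hbb-y, 0 were listed in either liver. In the 25 kb upstream of Hbb-y (chr7:111001755-111026754, mm9), a stretch toward the locus control region, 11 were listed in the liver labelled Adar1-/- and 12 in the liver labelled Adar1-/- Mavs-/-. They covered 8136 and 14375 bases, or 32.5% and 57.5% of the stretch, at a mean of 1.17 and 1.25 FPKM. The highest was at 7.27 FPKM in the first library and 5.18 FPKM in the second, starting 17659 and 17666 bases upstream of Hbb-y. These means are weighted by length over the assembled isoforms only, so they leave out the larger covered length in the second library. How much is covered can also move with what was assembled in each library. Whether the stretch as a whole held more RNA in one liver was not tested.

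**Figure D3:**
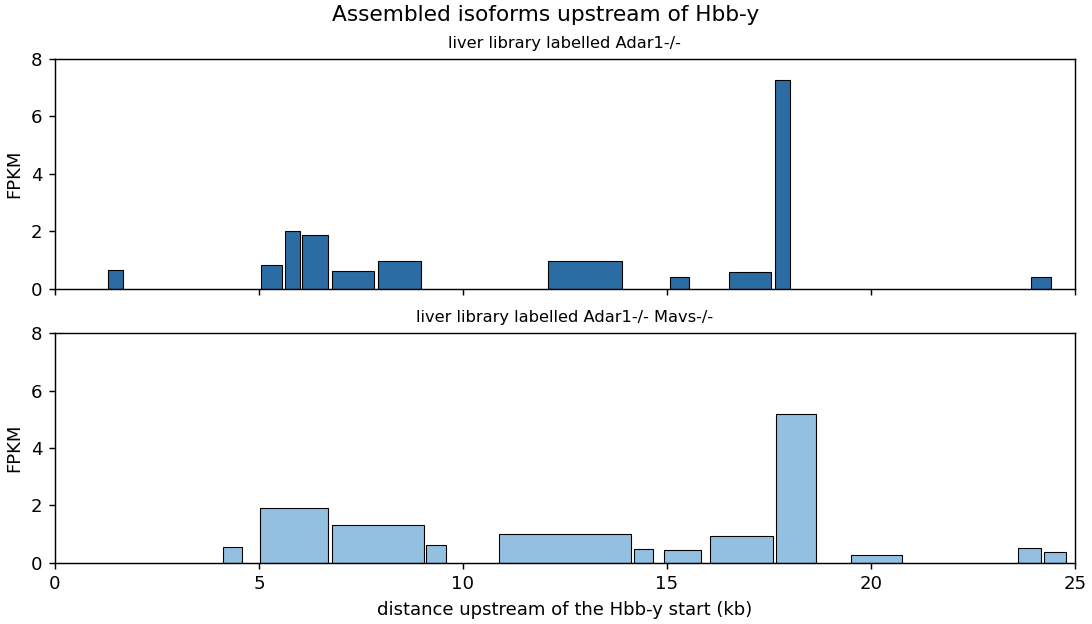
Assembled isoforms in the 25 kb upstream of Hbb-y in each liver library, with distance from the gene's start in kb on the horizontal axis and FPKM on the vertical axis. The bar width is the span of the isoform, and the tallest bar, at 7.27 FPKM in the upper panel and 5.18 FPKM in the lower, lies at about the same distance in both.

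Among 1552 genes of the shared chromosomes with at least 5 FPKM in a library, the closest to Hba-x in pattern over the 4 libraries, by Euclidean distance on centred log2 values, were Anapc11 (distance 0.39), Ten1 (0.54) and Vmp1 (0.70). All 3 were listed at 0 in both livers. Anapc11 was at 45.7 and 62.1 FPKM in the embryos, Ten1 at 52.7 and 42.2 FPKM and Vmp1 at 46.5 and 36.8 FPKM. A listed 0 can be a failed estimate, so this likeness is a description of the tables only.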

How the data were processed

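Total RNA of 4 libraries, 1 per group, was sequenced. The deposited tables give FPKM and coverage for each isoform, with confidence bounds and a status, per the file headers. Per the submitters' processing notes, TopHat 1.4.0, Cufflinks 2.2.1 and the mm9 build were used, with no roles stated; a count-testing tool is also named, whose output was not used. Strandedness and the handling of multiply mapped reads were not stated. Coverage, the deposited read depth, served only as a measure of depth. Read totals were not known, so no counting interval was made.

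Symbols came from GENCODE M21 by transcript identifier, which matched 86.7% to 90.2% of reference identifiers. Other isoforms took the symbol in their Cufflinks gene with the greatest overlap. FPKM were summed per gene and bounds combined as the root of summed squares. Starts, which count from 0 in the tables, were converted to count from 1. Ratios used log2(scaled FPKM + 1), with the median ratio of genes of at least 5 FPKM in both libraries set to 0. Genes reaching 1 FPKM in one of the compared libraries were counted, and 2-fold was the call. With 1 library per group no test, p-value or replicate left out was possible. The ratio script was tested on simulated data. Python 3.11.15, pandas 2.3.3, numpy 2.4.6 and matplotlib 3.10.9 were used.

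The members and the gene lists were chosen with earlier results of these data known. Named are all members, the other genes of both clusters and the 4 most abundant genes of each list. For regulators, haem supply and macrophage markers, each gene at least 2-fold apart is named too. Alternatives changed the scaling, the pseudocount, the isoforms kept and the status kept. Of 11462 matched reference isoforms read in both embryo libraries, 7 were not analysed here in liver, those of Hba-a1, Hba-a2, Hbq1a and Hbq1b. Of 82354 in the liver labelled Adar1-/-, 4 were not analysed here in the other liver, those of Hbb-bs and Hbb-bt. The planned zeta share in liver, embryonic beta-type share in the second liver, alpha-to-beta balance and likeness to adult alpha globin therefore have no value. Ahsp, Abcb10, Myb, Zfpm1 and Acta1 were not analysed here, and 1 red cell membrane gene is not reported here on its own.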

Additional observations from a re-analysis of the deposited data

Results flagged for a closer look

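Of 32 members and list genes that were counted in both tissues, 9 had log2 ratios of opposite sign in embryo and in liver, for the libraries labelled Adar1-/- Mavs-/- over Adar1-/-. Rhbdf1, a flank of the alpha cluster, stood at 0.31 in embryo and -1.26 in liver. Ikzf1 stood at 0.33 and -1.05, Mbd3 at 0.27 and -0.32, and Mpg at -0.36 and 0.059. Bcl11a stood at -0.57 and 0.27, Myl7 at 0.19 and -1.83, and Apob at -0.47 and 0.45. The megakaryocyte markers Itgb3 and P2rx1 stood at 0.40 and -0.40, and at -0.36 and 0.33. With 1 library per group these differences were not tested, and the sign of small embryo ratios moves with the scaling. In embryo the ratios of Ikzf1 (± 0.35), Apob (± 0.51) and P2rx1 (± 0.41) did not exceed their errors. The share of opposite signs over all genes counted in both tissues is not given here, so 9 of 32 has no background beside it.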

How the results depend on the processing

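No paired analysis was possible because each group has 1 library, and leaving out a library leaves no comparison. The direction of the summed Hba-a1 and Hba-a2 ratio between embryos (0.20) turned with the processing: it was -0.22 as deposited, -0.74 as TPM over shared genes, 0.13 as TPM without the 20 most abundant genes, 0.34 with an upper quartile factor, 0.38 with reference isoforms only, -0.21 with isoforms of status OK only and 0.35 with a factor from all genes above 0. The summed Hbb-y and Hbb-bh1 ratio between livers (1.90) was 1.58, 1.69, 2.03, 1.23 and 2.13 as TPM, TPM without the most abundant genes, upper quartile, reference isoforms only and all genes above 0, and 1.69 with the factor from red cell membrane genes, an alternative chosen after seeing the data. The Hba-x ratio of liver over embryo for the Adar1-/- label (-6.09) was -6.41 as deposited, -7.69 as TPM, -5.84 with that TPM restricted as above and -5.68 with a pseudocount of 5; for the Adar1-/- Mavs-/- label (-6.19) it was -7.45 as TPM and -5.77 with a pseudocount of 5. With reference isoforms only, the zeta share was 12.2% and 12.7% in the embryo libraries (12.7% also with status OK only in the second), the embryonic beta-type share 0.226% and Hba-x per 100 FPKM of Hbb-y and Hbb-bh1 4.50 in the second liver. With status OK only, the embryonic beta-type share has no value. In embryos, genes at least 2-fold higher numbered 58 as TPM and 63 with a pseudocount of 5, rather than 126, and genes lower 320 as deposited, 736 as TPM and 87 with a pseudocount of 5, rather than 188. In livers, genes higher numbered 382 with a pseudocount of 5 rather than 916, and genes lower 2171 as TPM, 2113 with a pseudocount of 0.1 and 417 with one of 5, rather than 1349. The log2 factor between embryo libraries was 0.42, and -0.52 as TPM; between livers it was -0.0069, and -0.33 as TPM. The cause of these shifts was not tested. Of the values under alternatives for the main comparisons, 32 moved by less than the error from the bounds and 24 by more.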
